A study of Drosophila melanogaster with 9 samples.

Results

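Ribosomal proteins of Drosophila melanogaster that have a pair of gene copies were followed through both copies: RpL22 with RpL22-like, RpS19a with RpS19b, and RpL37-1 with RpL37-2. These 6 genes were picked by name from the 17611 gene IDs of the count files, as a common copy and a tissue-restricted copy of each of 3 proteins. The libraries held polyadenylated RNA of whole first instar larvae in 3 groups of 3: wild-type males, males of genotype roX1[ex6]roX2[9-4] that lack both roX RNAs (roX-KO males below), and wild-type females. The protocol text of the female libraries also names males, and the group of those libraries was taken from their sex label. The series asks how the roX RNAs act in transcription.

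A ribosome holds 1 copy of most of its proteins, and in flies most of these proteins are made from a single gene. A minority have a second gene whose transcript is largely limited to certain tissues, most often the germline of testis or ovary. RpL22-like is known from the male germline, RpS19b from the germline of both sexes, and RpL37-2 from the testis. The protein of the second gene can take the place of the common one in the ribosome. The roX RNAs belong to the MSL complex, which in males binds along the X chromosome and raises its transcription, and which does not assemble in females.

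All 3 common copies were X-linked and all 3 restricted copies were autosomal, a property that the choice of genes did not use. In dm6 coordinates, RpL22 (FBgn0015288) lay on the minus strand at chrX:762560-765130, RpS19a (FBgn0010412) on the plus strand at chrX:16637894-16639249 and RpL37-1 (FBgn0030616) on the minus strand at chrX:15137870-15139367. RpL22-like (FBgn0034837) lay at chr2R:23246610-23247893, RpL37-2 (FBgn0034822) at chr2R:23100057-23100478 and RpS19b (FBgn0039129) at chr3R:23932729-23933530, all 3 on the minus strand. RpL37-2 had a single exon, of 422 bases, while the exons of RpL37-1 came to 1296 bases in 3 blocks. Among the other ribosomal protein genes tested, 11 of 80 were X-linked. The exons of RpL22 share 377 bases with lncRNA:CR42491 on the same strand, so the count of RpL22 is uncertain in part. Introns of RpL22 also hold genes of small nucleolar RNAs, none of which overlaps an exon base. Reads that match both copies of a pair could not be followed, since the handling of such reads by the counting is not given in the sources used here.

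Counts in genes came to between 17318293 and 18020359 per library. The targeted genes followed the genotype labels: roX1 had 5571, 4964 and 6002 reads in wild-type males, 63, 52 and 68 reads in roX-KO males and 440, 403 and 314 reads in females. roX2 had 150, 181 and 162 reads in wild-type males, 0 in each roX-KO male library and 3, 4 and 6 in females. Female library 3 stood apart, with a correlation over genes of 0.979 and 0.98 to the other female libraries, which correlated at 0.993 with each other. Levels are given as CPM, counts brought to a common library size with TMM factors, and levels of different genes are compared only per kilobase of exon. Folds and adjusted p-values come from edgeR's quasi-likelihood test with Benjamini-Hochberg adjustment over all genes tested, and a gene with an adjusted p under 0.05 is called. The labels do not say whether replicates were separate cultures, so p-values measure the spread between libraries. The female libraries carry later accessions than the male ones, and sex and any difference between those rounds cannot be told apart.

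**Figure D1:**
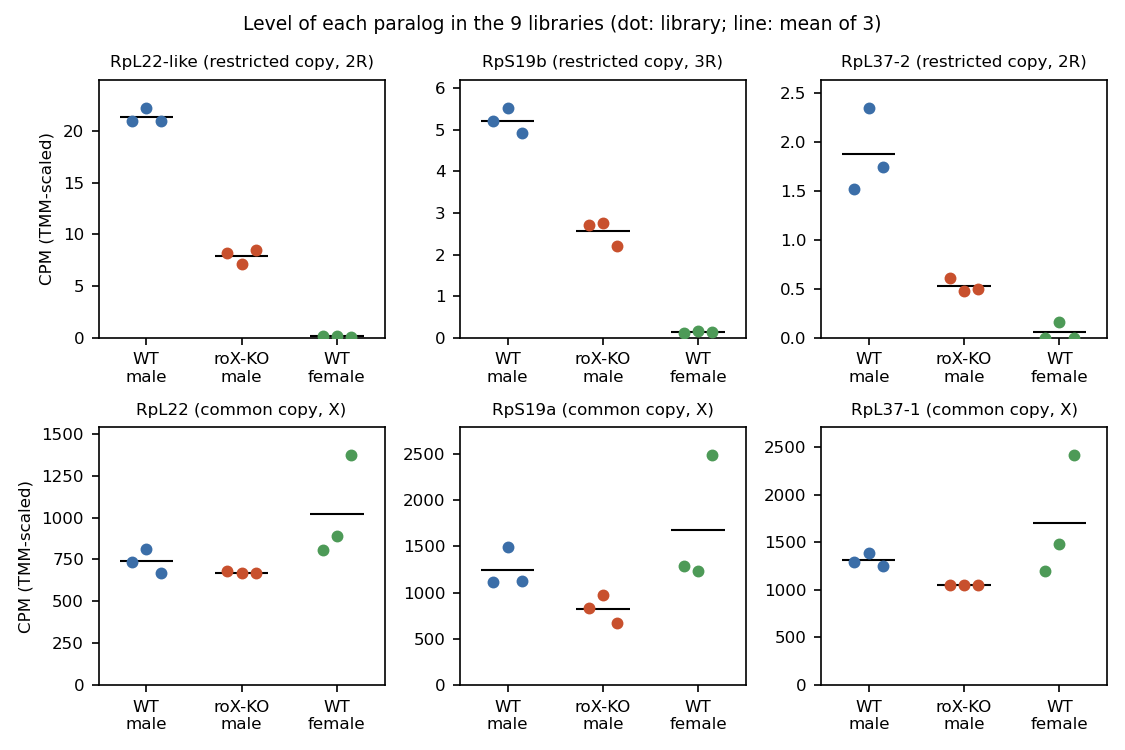
Level of each paralog in every library, in CPM after TMM scaling (vertical axis, from 0, its own scale in each panel), by group (horizontal axis); dots are libraries and lines are means of 3. The restricted copies RpL22-like, RpS19b and RpL37-2 step down from wild-type males through roX-KO males to females, while the common copies are lowest in roX-KO males or overlap between groups.

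RpL22-like, the restricted copy of a large-subunit protein whose fly form carries a long extension at its amino end, was lower in roX-KO males and near 0 in females. Its level was 21, 22.3 and 21 CPM in the wild-type males, 8.17, 7.18 and 8.51 CPM in the roX-KO males and 0.216, 0.164 and 0.0664 CPM in the females. No 2 of the groups overlapped, and the female values rest on 4, 3 and 1 reads. RpL22-like fell by 1.43 on the log2 scale in roX-KO males (SE 0.10, adjusted p = 7.5e-08, edgeR), a 2.69-fold lower level. Against wild-type males the females were lower by a log2 fold of -7.05 (SE 0.26, adjusted p = 4.08e-05, edgeR). The common copy RpL22 was at 735, 811 and 668 CPM in the wild-type males, 678, 667 and 670 CPM in the roX-KO males and 808, 887 and 1375 CPM in the females. Its roX-KO values lay at the low end of the wild-type range, and female library 3 stood above all others. RpL22 was called in none of the 3 comparisons: its log2 fold was -0.14 in roX-KO males (adjusted p = 0.177) and 0.47 in females (adjusted p = 0.201).

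RpS19b, the restricted copy of a small-subunit protein, had the same order of groups. It was at 5.2, 5.54 and 4.92 CPM in the wild-type males, 2.72, 2.76 and 2.2 CPM in the roX-KO males and 0.108, 0.164 and 0.133 CPM in the females. The 3 groups did not overlap, and each female library held 2 or 3 reads of the gene. RpS19b fell by 1.03 in log2 in roX-KO males (SE 0.15, adjusted p = 5.67e-05, edgeR). In females it was lower by a log2 fold of -5.20 (SE 0.24, adjusted p = 9.9e-05, edgeR). The common copy RpS19a was at 1114, 1491 and 1124 CPM in the wild-type males, 838, 969 and 671 CPM in the roX-KO males and 1290, 1237 and 2489 CPM in the females. Every roX-KO library lay below every wild-type male one, whereas females and wild-type males overlapped. RpS19a fell by 0.59 in log2 in roX-KO males (SE 0.14, adjusted p = 0.00261), and its log2 fold in females was 0.43 (adjusted p = 0.38, not called).

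RpL37-2, the intronless copy of a small zinc-binding protein of the large subunit, had the lowest level of the 6 genes per kilobase of exon, at 4.43 CPM ± 1.01 (SD, n = 3) in wild-type males. It had 26, 39 and 29 reads in wild-type males, 12, 9 and 10 reads in roX-KO males and 0, 3 and 0 reads in females, or 1.52, 2.35 and 1.74 CPM against 0.605, 0.479 and 0.5 CPM in the male groups. The male groups did not overlap, and RpL37-2 fell by 1.81 in log2 in roX-KO males (SE 0.27, adjusted p = 8.85e-05, edgeR). With 3 reads over the females, the ratio of wild-type males to females was 32.3 with a 95% counting interval of 10.7 to 159, and that of roX-KO males to females was 9.14 with an interval of 2.85 to 46.7. These intervals cover counting error only. Its adjusted p between females and wild-type males was 0.0038 (edgeR), and without female library 2 no female read was left. The common copy RpL37-1 was at 1297, 1386 and 1249 CPM in the wild-type males, 1052, 1050 and 1051 CPM in the roX-KO males and 1198, 1478 and 2418 CPM in the females. RpL37-1 fell by 0.32 in roX-KO males (SE 0.08, adjusted p = 0.00312, edgeR), without overlap, and its log2 fold in females was 0.38 (adjusted p = 0.38, not called).

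Between the male groups, 5 of the 6 paralogs were thus called lower and 0 higher, where 32.1% of the 11172 genes tested were called lower and 31.4% higher, 63.5% in all. RpL37-2 passed the filter on low counts through the wild-type males alone, so that a gene like it could enter the test only by being higher there. Between females and wild-type males, the 3 restricted copies were called lower and no paralog higher, where 11.2% of the 11104 genes tested were called lower, 10.8% higher and 22% either way. RpL22-like, RpS19b and RpL37-2 passed the filter there through the males alone, so they too could enter that test only by being higher in males. In these whole-larva libraries, fewer cells that express a restricted copy and less of its RNA per cell cannot be told apart.

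The roX-KO males were also set against the females, in a comparison that shares all its libraries with the other two. RpL22-like and RpS19b were called higher in roX-KO males, with log2 folds of 5.62 (SE 0.29) and 4.17 (SE 0.29). RpS19a was called lower, with a log2 fold of -1.02 (SE 0.30, adjusted p = 0.0456, edgeR). RpL22 and RpL37-1 lay in the same direction at -0.61 and -0.70 and were not called (adjusted p = 0.0733 and 0.0871). RpL22-like and RpS19b passed the filter through the roX-KO males alone. RpL37-2 did not pass it, so 3 of 5 tested paralogs were called, where 27.2% of the 11173 genes tested were called, 10.7% higher and 16.6% lower. RpS19a was not called once any 1 roX-KO library was left out, with adjusted p between 0.0985 and 0.164. RpL22 and RpL37-1 were called without female library 1 or 3, which raised the count from 3 to 5.

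For the order of the groups, wild-type males, roX-KO males and females followed each other without overlap for RpL22-like and RpS19b, and for RpL37-2 in reads as well as in CPM. For RpS19a and RpL37-1 the roX-KO males were lowest, and the wild-type males and the females, whose ranges overlapped, were not separated. For RpL22 the roX-KO males overlapped the wild-type males, and the wild-type males overlapped the females, while roX-KO males and females did not overlap. The share of all genes whose groups do not overlap was not counted, so a lack of overlap here does not set these genes apart. Between the male groups 63.5% of the genes tested were called.

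**Figure D2:**
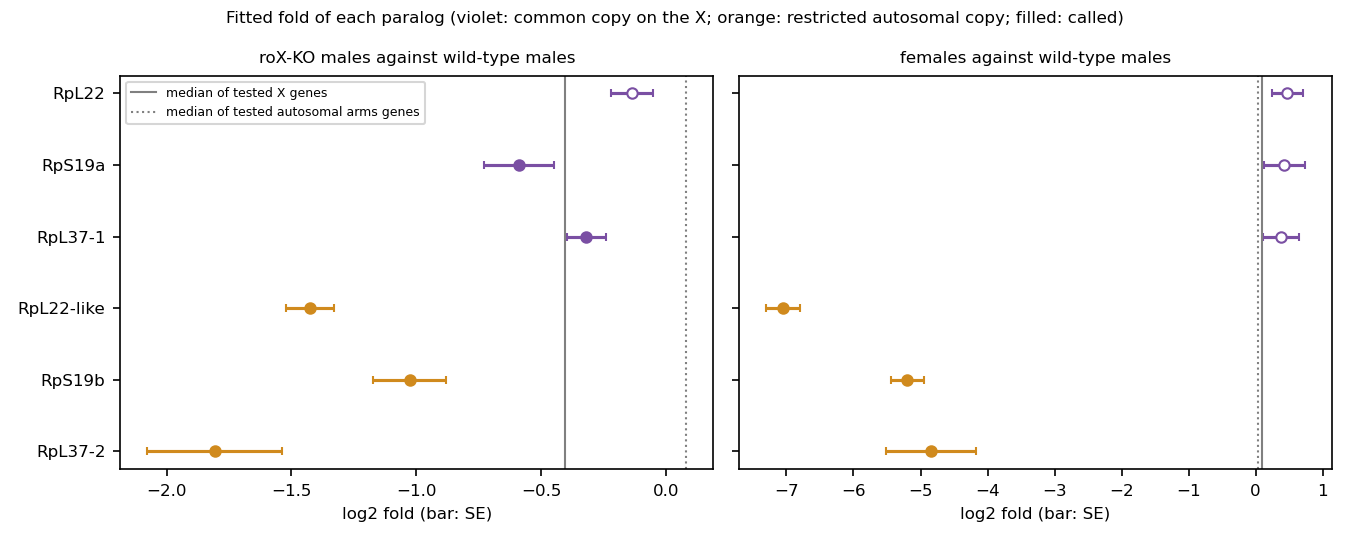
Fitted log2 fold of each paralog (horizontal axis, bars are SE) in roX-KO males and in females, each against the same 3 wild-type male libraries; filled points are called and open ones are not, and vertical lines are medians of the tested X and autosomal-arm genes. In roX-KO males the violet X-linked copies sit between -0.59 and -0.14 and the orange autosomal copies spread from -1.81 to -1.03; the female value of RpL37-2 rests on 3 reads in all.

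The common copies were read against the other genes of their chromosome. The 1751 X-linked genes tested had a median log2 fold of -0.41 in roX-KO males, with quartiles of -0.77 and -0.01, and the 9286 genes of the large autosomal arms had a median of 0.08. RpS19a lay at the 37.1st percentile of the X-linked genes, RpL37-1 at the 56.7th and RpL22 at the 68th. All 3 lay between the quartiles of the X-linked genes. In females against wild-type males the X-linked median was 0.09, and the common copies lay between the 70.6th and the 77.1st percentiles.

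The restricted copies were read against the genes of the autosomal arms. Between the male groups RpL37-2 lay at the 3.6th percentile, RpL22-like at the 4.87th and RpS19b at the 7.22nd. In females RpL22-like lay at the 0.0868th percentile of the arms and RpS19b at the 0.174th. Both passed the filter there through the males alone, and RpL37-2 passed it between the male groups through the wild-type males alone. Those 3 ranks at the low end were thus set in part by the filter. The log2 folds of RpL22-like, RpS19b and RpL37-2 in roX-KO males were thus lower than those of their X-linked partners, although these 3 copies are autosomal, and the difference within each pair is tested further on as a ratio.

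The other ribosomal protein genes followed the chromosome in the same comparison. Of the 11 X-linked ones, 9 were called lower and 0 higher between the male groups, at a median log2 fold of -0.46 and a range of -0.74 to -0.19. Of the 69 autosomal ones, 7 were called lower and 3 higher, with a median of 0.02 and a range of -0.44 to 0.74. Over all genes tested, 1031 of 1751 X-linked ones were called lower and 233 higher. On the autosomal arms 2523 of 9286 were called lower and 3212 higher. The lower end of the autosomal range is RpS10a, itself the rarer copy of a pair whose common copy RpS10b is X-linked. RpL22-like, RpS19b and RpL37-2 thus lay below every other autosomal ribosomal protein gene tested. With factors from total counts, 5 of the X-linked genes were called lower and 38 of the autosomal ones higher, and with all 9 libraries in 1 fit none of the X-linked ones was called. None of the 7 autosomal genes called lower was called lower with total counts or with all 9 libraries in 1 fit. Without wild-type male library 2, 20 autosomal ones were called higher, and without library 1 or 3 of that group 1 was.

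RpS10a, which is not among the 6 genes, was the one gene called in females among the 80 others of the list, and it marks the lower end of the range above. It too passed the filter in that comparison through the males alone. It had 29, 38 and 26 reads in wild-type males, 38, 21 and 21 reads in roX-KO males and 1, 2 and 4 reads in females. The male groups overlapped, and all females were below all males. Its log2 fold was -0.44 in roX-KO males (adjusted p = 0.166, not called) and -3.69 in females (SE 0.44, adjusted p = 0.00218, edgeR). Its common partner RpS10b, X-linked like the common copies of the 3 pairs, fell by 0.49 in roX-KO males (SE 0.10, adjusted p = 0.00125, edgeR). RpS15Ab, also a rarer autosomal copy with an X-linked partner (RpS15Aa), did not share this pattern. Its log2 fold was -0.04 in roX-KO males (adjusted p = 0.73, edgeR) and 0.11 in females (adjusted p = 0.796, edgeR). The duplicated genes RpL10Aa and RpS28a had no read in any library. None of the 80 other ribosomal protein genes was called higher in females, although their median log2 fold was 0.52. Their summed level was 115171 to 141587 CPM in the wild-type males and 128138 to 261672 CPM in the females, the highest of these in library 3. Without female library 3, 3 of the 6 paralogs were again called in females.

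The makeup of each pair was next taken within a library, where no scaling factor enters. Per kilobase of exon, RpL22-like made up 2.53% ± 0.17 (SD, n = 3) of the RpL22 pair in wild-type males, 1.05% ± 0.086 in roX-KO males and 0.0149% ± 0.0099 in females. RpL22 was thus 35.7 to 40.8 times as abundant per kilobase as RpL22-like in the wild-type male libraries, and 88.2 to 104 times in the roX-KO male libraries. These values, and the ratio and sum of this pair below, carry the uncertainty of the RpL22 count from exon bases shared with lncRNA:CR42491. RpS19b made up 0.795% ± 0.091 of its pair in wild-type males, 0.585% ± 0.044 in roX-KO males and 0.0169% ± 0.0075 in females. RpL37-2 made up 0.434% ± 0.080 of its pair in wild-type males, 0.154% ± 0.020 in roX-KO males and 0.0113% ± 0.020 in females, where 2 libraries had no read of it. In every group the restricted copy was therefore a small part of the pair.

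The log2 ratio of restricted to common copy was lower in every roX-KO library than in every wild-type male library for all 3 pairs. The difference from wild-type males was -1.30 (SE 0.090) for the RpL22 pair, -0.43 (SE 0.12) for the RpS19 pair and -1.44 (SE 0.18) for the RpL37 pair, each without overlap of the libraries. A ratio holds the values of both copies, so the lower level of RpS19a raised it in its pair. An exact two-sided permutation test gave p = 0.1 for each pair, the smallest that 3 libraries against 3 allow and thus never under 0.05, and the adjusted value over the 9 ratio tests was also 0.1. In females the difference was -7.44 (SE 0.62), -5.38 (SE 0.36) and -5.38 (SE 0.99) for the RpL22, RpS19 and RpL37 pairs, again with an exact permutation p of 0.1 each. The female ratios rest on 0 to 4 reads of the restricted copy per library, with 0.5 added to each count.

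**Figure D3:**
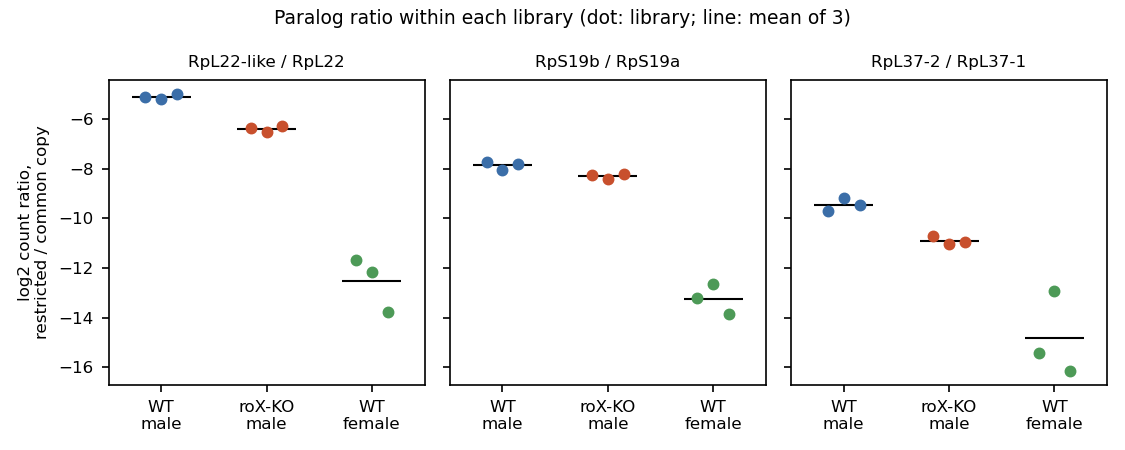
Log2 of the read count of the restricted copy over that of the common copy (vertical axis, 0.5 added to each count) in each library (dots) by group, with means of 3 as lines. Wild-type and roX-KO males separate in all 3 pairs, and females are lowest in each.

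Both copies summed give the level of the pair as a whole, which follows the common copy. In roX-KO males the log2 CPM of the sum differed by -0.16 (SE 0.079) for RpL22, -0.59 (SE 0.21) for RpS19 and -0.32 (SE 0.044) for RpL37. Each pair had an exact permutation p of 0.1 with no overlap, 0.15 after adjustment over 9 tests. In females the differences lay between 0.31 and 0.39 with overlapping groups.

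Germline markers were followed beside these values, because the restricted copies are known from the germline. Of 28 germline genes, 23 were tested in females against wild-type males, and 16 were called lower and 0 higher, with a median log2 fold of -1.44 where the median of all genes was 0.04 and 11.2% of genes were called lower. The largest changes were in zpg, an innexin of germ cells (-5.13), vas, a germline RNA helicase (-3.32), and aub, a protein of the piRNA pathway (-3.03). With 5 reads over the females, zpg passed the filter through the males alone, and aub, with 9 reads in female library 3, also needed the males to pass. Genes of the list with so few female reads could enter the test only by being higher in males. The list summed to 346 to 419 CPM among wild-type males, 486 to 510 CPM among roX-KO males and 238 to 355 CPM among females. Most of each sum came from tud, at means of 190, 260 and 167 CPM in that order, and stau, at 53, 82.4 and 50.4 CPM. The sums thus say little about the rarer genes of the list, such as zpg, vas and aub. Only osk was without a read in both wild-type groups. Beside these, RpL22-like had a log2 fold of -7.05 and RpS19b of -5.20 in females. The part of the germline in these values was not tested.

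Between the male groups the germline genes were mixed. Of 25 tested, 7 were called higher and 6 lower, with a median log2 fold of -0.04 where the median of all genes was 0.02. Over all genes 31.4% were called higher and 32.1% lower, so the shares of the list were near or below the background. The largest called falls were in shu, a cochaperone of the piRNA pathway (-0.91, adjusted p = 0.000282), bam, a germline differentiation factor (-0.57, adjusted p = 0.0262), and aub (-0.54, adjusted p = 0.00293). The largest called rises were in stau, an RNA-binding protein (0.64), tej (0.55) and del (0.54). vas was at 8.13, 9.39 and 8.05 CPM in the wild-type males and 6.5, 6.97 and 6.96 CPM in the roX-KO males, a log2 fold of -0.32 (adjusted p = 0.0224, edgeR). zpg had a log2 fold of -0.41 (adjusted p = 0.0361), and nanos, a translational repressor of germ cells, one of 0.02 (adjusted p = 0.917). nanos was at 7.31, 5.78 and 6.72 CPM in the wild-type males and 7.11, 6.54 and 6.41 CPM in the roX-KO males, with overlap. The part of the germline genes in the results of the paralogs was not tested here either. With all 9 libraries in 1 fit, 1 germline gene was called higher and 1 lower. With total counts, 1 germline gene was called lower and 10 higher, DESeq2 called 2 lower, and 3 were called lower without roX-KO library 1 or 3. Of 12 genes of testis-specific transcription, 4 were tested, topi was called higher (1.28) and vis lower (-1.28), and wa-cup had no read in any library. In females 5 of them were tested, and vis and mia were called lower. With 15 reads over the females and 18 over the roX-KO males, vis entered both comparisons only through the wild-type males. With 1 library left out, 1 to 2 of this list were called lower between the male groups and 1 to 4 in females.

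**Figure D4:**
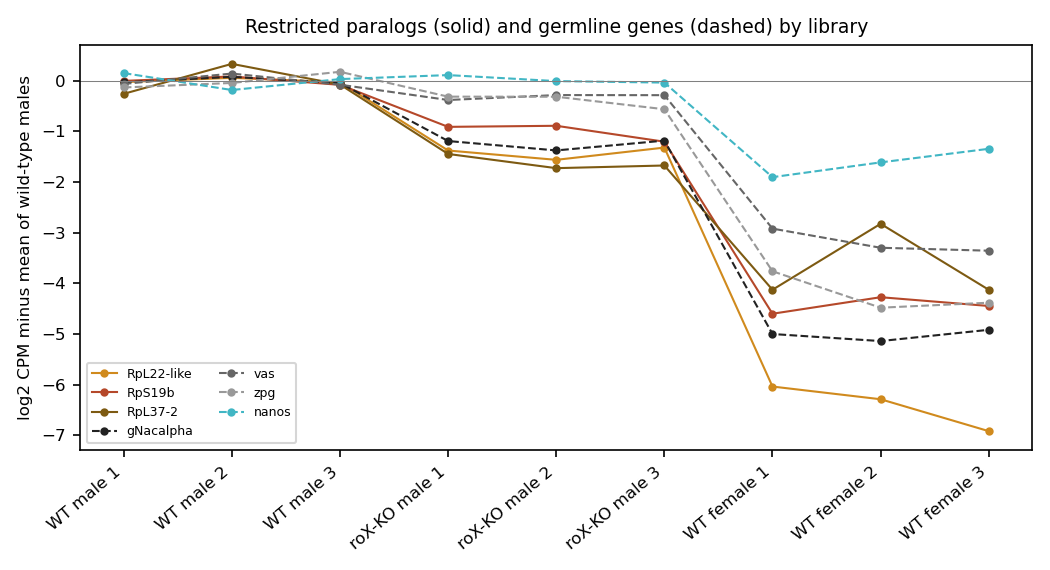
Log2 CPM of the 3 restricted copies (solid) and of 4 germline genes (dashed) in each library (horizontal axis), minus the mean of the wild-type males (vertical axis). RpL22-like, RpS19b and RpL37-2 lie below vas, zpg and nanos in roX-KO males. So does gNacalpha, which fell by 1.26, is not in the germline list and was picked for its likeness to the paralogs. Called genes of that list had log2 folds from -0.91 (shu) to 0.64 (stau) between the male groups. The 3 restricted copies, at -1.81 to -1.03, lay below these, and the size of the gap depends on the genes drawn. Female values of the 3 restricted copies and of zpg rest on few reads and are shaped by the prior count of 2.

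For each paralog the genes with the most alike pattern were found as those with the smallest root mean square difference of centred log2 CPM over the 9 libraries, among 10053 genes with a mean log2 CPM of at least 1. For RpL22-like and for RpS19b the nearest was gNacalpha, which encodes a germline form of a subunit of the nascent polypeptide-associated complex, at 0.669 and 0.291. gNacalpha was at 16.9, 18.2 and 16.8 CPM in the wild-type males, 7.51, 6.59 and 7.56 CPM in the roX-KO males and 0.433, 0.382 and 0.465 CPM in the females. Its groups did not overlap, as for these 2 paralogs, and it fell by 1.26 in roX-KO males (SE 0.10, adjusted p = 3.08e-07, edgeR). gNacalpha was picked for its likeness over these same libraries, so its order of groups and its fall are no separate evidence. Kots and phu came next for both paralogs. The female values of RpL22-like and RpS19b rest on 1 to 4 reads per library. The prior count of 2 thus weighs on their likeness to these genes in females.

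For RpL37-2 the nearest genes were the heat shock gene Hsp68 at 0.447, phu at 0.467 and the small heat shock gene Hsp27 at 0.492. In 2 of the 3 female libraries RpL37-2 had no read, so its value there, and with it the likeness in females, is set by the prior count of 2. Hsp68 was at 185, 177 and 194 CPM in the wild-type males, 51.1, 52.9 and 53.7 CPM in the roX-KO males and 15.5, 15.2 and 16.9 CPM in the females. Among the common copies, RpL22 was nearest to Josd at 0.0669, RpS19a to Jon25Bii at 0.097 and RpL37-1 to RpL39, another ribosomal protein gene, at 0.0656. RpL39 was at 632, 611 and 583 CPM in the wild-type males, 502, 465 and 530 CPM in the roX-KO males and 580, 737 and 1112 CPM in the females. RpL39 is autosomal, unlike RpL37-1.

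Genes that build ribosomes were followed in both comparisons with wild-type males. Of 26 ribosome biogenesis genes, 19 were called lower in roX-KO males, where 32.1% of all genes were, at a median log2 fold of -0.40. Non1 (0.94, adjusted p = 8.7e-07) and udd (0.56, adjusted p = 0.000576) were called higher. Among those called lower, the subunits of RNA polymerase I Polr1E (-0.86) and Polr1C (-0.74) and the nucleolar gene Surf6 (-0.83) fell most. In females 19 were called lower, where 11.2% of all genes were, and udd (0.87) was called higher, with a median of -1.13 over the list, and Polr1B (-1.80) and Nopp140 (-1.74) fell most. In roX-KO males 12 were called lower with total counts, and 12 with all 9 libraries in 1 fit. The count called higher in females was 0 to 2 with 1 library left out. Of 10 genes listed for the response to loss of ribosomal protein dose, 7 were called higher in roX-KO males, where 31.4% of all genes were. The median log2 fold of the list was 0.42. The 1 called lower was RpS12 (-0.32, adjusted p = 0.0195), a ribosomal protein gene that is also counted among the 80 others. The higher ones include the apoptosis genes hid (1.27) and rpr (0.55). With all 9 libraries in 1 fit 4 were called higher, and the count called lower was 0 to 2 with 1 library left out. In females 4 of the 10 were called higher and 1 lower, at a median of 0.52, where 10.8% of all genes were called higher. That count of 4 was 1 without any 1 wild-type male library, 1 with the replicate block and 2 without female library 1 or 2. Both lists share the wild-type males with the results of the paralogs, and no relation between them was tested.

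The authors' deposited table of the male libraries gave log2 folds of -1.44 for RpL22-like, -1.04 for RpS19b and -1.83 for RpL37-2, and of -0.14 for RpL22, -0.60 for RpS19a and -0.33 for RpL37-1. In the authors' deposited table, adjusted p-values were under 0.05 for the same 5 genes, and 0.151 for RpL22.

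The calls of the restricted copies and of the common copies differed in how far they depended on the scaling and the fit. RpL22-like, RpS19b and RpL37-2 were called lower in roX-KO males under every alternative run. RpL37-1 was not called with total counts (log2 fold -0.09, adjusted p = 0.312), nor with all 9 libraries in 1 fit (adjusted p = 0.296). RpS19a was not called with all 9 libraries in 1 fit (adjusted p = 0.125) or without wild-type male library 2 (log2 fold -0.44, adjusted p = 0.0702). Total counts raised the median log2 fold of all genes in roX-KO males by 0.23, and the log2 fold of RpL22, not called in either fit, was then 0.096.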

How the data were processed

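The authors deposited a table of raw read counts for each library, with whole numbers for 17611 gene IDs. Its closing lines hold reads given to no gene, 50 to 51.9% of the total, which were left out. HISAT2 2.2.1, SAMtools 1.13, HTSeq 2.0.2, DESeq2 and dm6 are named in the submitters' processing notes. Settings, strand handling and annotation release were not given in the sources used here. A second table, for the male libraries, holds the authors' log2 fold changes with standard errors and adjusted p-values. Its 9 other columns were not used.

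Symbols, positions and exon lengths came from an Ensembl annotation of dm6, which matched 17556 IDs and left 55 unmatched. The 6 libraries of a comparison formed their own fit. Genes passed filterByExpr (minimum count 10, total 15), received TMM factors and were tested with edgeR's robust quasi-likelihood F-test, adjusted by Benjamini and Hochberg (edgeR 4.0.16, limma 3.58.1, R 4.3.3). Log2 CPM used a prior count of 2. Ratios were tested with exact permutation tests (SciPy 1.17.1, Python 3.11.15). The alternatives were DESeq2 1.42.0, total counts, factors from the autosomal arms, no filter, 1 fit of all 9 libraries, the replicate number as a block, and leaving out each library. The fits were tested on simulated counts with the same spread for all genes. Changes of 1 in log2 were recovered for 94% of genes between the male groups and 71% in females against wild-type males. Between roX-KO males and females the share was 85%. False calls made up 5.39%, 6.63% and 4.69% of the calls in these comparisons, in that order. Named were the 6 paralogs, the 3 genes most alike to each, at most the 3 largest called folds per list and direction, and the roX genes. RpS10a and RpS10b fall under that rule, as do the germline markers except in comparisons where they are shown for reference. RpS15Ab, RpL10Aa and RpS28a do not, and are shown beside RpS10a for reference. Of the ribosomal protein list, 83 of 85 symbols matched. The 6 genes and the lists were chosen with earlier results of these data known. A further pair of the same kind is not reported here.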

Additional observations from a re-analysis of the deposited data

How the results depend on the processing

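Counts of called paralogs were recomputed under 12 alternatives per comparison. Between the male groups the count of 5 became 3 with all 9 libraries in 1 fit, was 4 with total counts and 4 to 5 with each library left out. In females it was 3 under all 12. Between roX-KO males and females the count of 3 became 6 with all 9 libraries in 1 fit and 6 with DESeq2, and ranged from 2 to 5 with each library left out. With a replicate block the counts were 5, 3 and 2. The numbers share only a label: same-numbered libraries deviated together at r of -0.014 to -0.0068, -0.58 to 0.40 and 0.0083 to 0.061. With total counts the log2 fold of RpL22 turned to 0.096 and that of the RpL22 pair sum to 0.075 in roX-KO males; total counts raised all genes alike by 0.23, and against females by 0.21, and the cause was otherwise not tested. The 9 paralog ratios kept their direction in all 72 recomputations, most of which could not have turned it. The groups did not overlap in any ratio, so leaving out a library could not change its direction. The mean difference of same-numbered libraries equals the main value by arithmetic. Only adding 2 in place of 0.5 to each count could have changed a direction.

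Over all genes, 7093 were called between the male groups and 4463 with all 9 libraries in 1 fit, and total counts raised the share called higher from 49.4% to 69.5%. In females 2441 became 1097 with the replicate block, 1068 to 1621 without 1 of the other libraries and 5851 without female library 3. Between roX-KO males and females 3044 became 6950 without that library, 1538 to 1709 without 1 roX-KO library, and the share called higher went from 39.2% to 57.5% with total counts. RpL37-2, and the restricted copies in females, are limited by their few reads.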
